A study of Homo sapiens with 9 samples.

Results

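Sugar breakdown and the response to low oxygen share many genes, and 34 genes of either pathway were followed here on expression arrays of RKO, a human colorectal cancer cell line. The members were taken by gene name from a list of known glycolysis or hypoxia response genes, with the brightest probe standing for each gene, and they are 34 of the 36337 gene names on the array. They comprise 3 transporters, 9 enzymes of upper glycolysis, 2 enzymes that set the level of fructose 2,6-bisphosphate, 5 enzymes of lower glycolysis, 3 enzymes of pyruvate fate, 3 genes of the hypoxia-inducible factor (HIF) system and 9 other hypoxia response genes. Of the 34, 32 had a signal well above background on all 9 arrays, BNIP3 on 3 arrays and EGLN3 on none, so that 33 members could be tested.

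The study asked how loss of UHRF1, a protein that keeps DNA methylation in place when DNA is copied, acts together with trichostatin A (TSA), an inhibitor of histone deacetylases. Cells carried a control siRNA (siCONT) or an siRNA against UHRF1 (siUHRF1) for 72 h and then received solvent (mock) or 300 nM TSA for 24 h, which gave 2 arrays each of siCONT and siUHRF1 with mock and of siCONT + TSA and siUHRF1 + TSA. Array 1 and array 2 of both siUHRF1 groups held different siRNAs (siRNA1 and siRNA2), whereas both arrays of a siCONT group held the same control siRNA, so that each UHRF1 siRNA has 1 array per drug condition. A single array held RKO cells treated with the DNA methylation inhibitor 5-aza-dC (1 µM, 72 h) without any siRNA. All samples came from 1 cell line, and nothing in the labels says whether the siCONT arrays came from separate cultures, so p-values measure only the spread between these arrays.

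Glycolysis splits glucose into pyruvate, and lactate dehydrogenase turns pyruvate into lactate, which leaves the cell through a monocarboxylate transporter. When oxygen is short, prolyl hydroxylases no longer mark the HIF alpha subunits for destruction, and the stabilised factors bind short DNA cores in the control regions of glucose transporter, glycolysis, angiogenesis and pH regulation genes. Tumour cells often run glycolysis at a high rate also with oxygen present. HIF activity is set largely at the protein level, which the arrays did not measure.

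The 75th percentile of the signal lay between 169.9 and 222.3 on the 8 siRNA arrays and at 552.6 on the 5-aza-dC array, with 43.6% to 46.6% and 51.6% of probes well above background. The 8 siRNA arrays shared a slide and a scan, with mock and TSA arrays in different rows and siCONT and siUHRF1 arrays in different columns, so position and treatment cannot be told apart. The 5-aza-dC array was on another slide and scan. Levels are given as log2 signal minus the array's 75th percentile, and differences are differences of those values. UHRF1 itself was at 3.26 on both siCONT arrays and at 0.96 and 0.63 on the siUHRF1 arrays, a fall of 5.50-fold (limma adjusted p = 0.0027). Under TSA its level was 3.40 and 3.41 with siCONT against 0.18 and -0.08 with siUHRF1, a fall of 10.2-fold (limma adjusted p = 0.000151). Of 8 epithelial markers, KRT8, KRT18 and CDX2 were above background on all 9 arrays, CDH1 and VIL1 on none, and EPCAM on 1 siCONT array and the 5-aza-dC array. KRT19 was above background on both siUHRF1 + TSA arrays and the 5-aza-dC array only, and CLDN4 on these and 1 siUHRF1 array. The summed signal of the 8, in units of the array's 75th percentile, was 74.2 to 74.7 in siCONT, 83.3 to 91.4 in siUHRF1, 80.7 to 81.6 in siCONT + TSA, 112 to 135 in siUHRF1 + TSA and 71.8 with 5-aza-dC. Of 9 markers of blood, stromal and endothelial cells, 2 to 5 were above background on an siRNA array and 7 on the 5-aza-dC array, and COL3A1 and PECAM1 were on none. COL1A2 was above background in siUHRF1 + TSA and with 5-aza-dC only, and VWF in every group but siCONT. The summed signal of the 9 was 5.07 to 5.45 in siCONT, 3.92 to 6.73 in siUHRF1, 5.27 to 5.44 in siCONT + TSA, 5.12 to 9.88 in siUHRF1 + TSA and 13.1 with 5-aza-dC. Most of it came from CD68, with a mean level of 2.25 in siCONT. The part of all these markers in the results below was not tested.

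**Figure D1:**
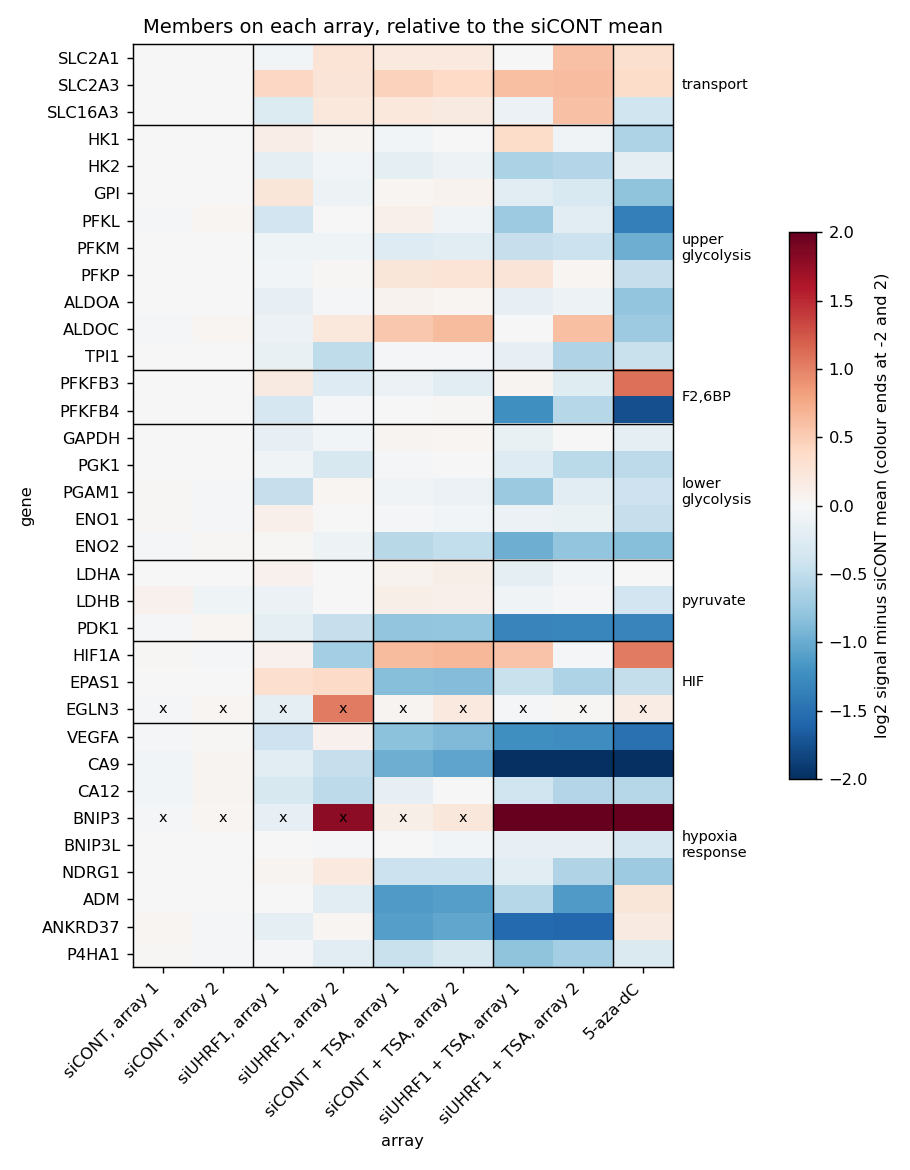
Each row is a member, grouped by role, and each column an array. Colour shows the log2 signal minus the mean of the 2 siCONT arrays, ending at -2 and 2, and a cross marks a probe not well above background. PDK1, VEGFA and CA9 turn blue in both TSA groups and with 5-aza-dC, whereas ADM and ANKRD37 are blue in both TSA groups and not with 5-aza-dC.

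The first comparison asked what loss of UHRF1 alone did to these genes. No member passed the test between siUHRF1 and siCONT (0 of 33, limma adjusted p below 0.05), where 0.738% of all 17743 gene names tested were called. At an unadjusted p below 0.05, limma counted 5 members, namely SLC2A3 and EPAS1 with positive and PDK1, CA9 and CA12 with negative differences, and the t-test that the study's methods name for continuous variables (the methods' t-test) counted 3 and, after Benjamini-Hochberg adjustment, 0. The share of all gene names at the unadjusted limit was not counted, so these 5 and 3 are no result about the members. The median difference over the members was -0.08 and over all gene names 0.01. CA9, a carbonic anhydrase at the cell surface, had a difference of -0.35 (95% interval -0.62 to -0.07). EPAS1, which encodes the HIF-2 alpha subunit, had one of 0.36 (95% interval 0.13 to 0.59). For the abundant enzyme GAPDH the interval ran from -0.34 to 0.12.

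The second comparison asked what TSA did in cells that kept UHRF1. TSA lowered 7 members and raised 1 of 33, beside 4.38% of all gene names called lower and 6.81% called higher (11.2% in either direction), so that the share lower was above, and the share higher below, that of all gene names. The fallen members were the HIF subunit gene EPAS1, the pyruvate dehydrogenase kinase gene PDK1, the enolase gene ENO2 and 4 of the 9 other hypoxia response genes, VEGFA, CA9, ADM and ANKRD37. The member that rose was SLC2A3, a glucose transporter. None of the 9 upper glycolysis enzymes passed the test, and their median difference was 0.02. None of these calls held when any 1 of the siCONT or siCONT + TSA arrays was left out, which leaves 1 array in that group. Their direction could not reverse there, since both siCONT + TSA arrays of each called member lay on the same side of both siCONT arrays. Scaling on the spike-in probes, which moved the median difference of all gene names from 0.06 to -0.11, left 4 members lower and 0 higher.

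The combination of siUHRF1 with TSA was then set against siCONT. It lowered 12 members and raised 2 of 33, beside 9.41% of all gene names lower and 15.4% higher (24.8% in either direction), and the same held for both shares. The median difference over the members was -0.38, and over all gene names 0.03. By role, 1 of 3 transporters rose, 2 of 9 upper glycolysis enzymes fell (HK2 and PFKM), 1 of 2 fructose 2,6-bisphosphate enzymes fell (PFKFB4), 1 of 5 lower glycolysis enzymes fell (ENO2) and 1 of 3 pyruvate enzymes fell (PDK1). Of the 2 HIF genes tested EPAS1 fell, and of the 9 other hypoxia response genes 6 fell (VEGFA, CA9, CA12, ADM, ANKRD37 and P4HA1) and BNIP3 rose. BNIP3 entered the fit only through siUHRF1 + TSA, the group in which it is above background, so its call is no support for a rise among the members. Leaving out either siCONT array reduced the count from 14 to 5, and the methods' t-test with Benjamini-Hochberg adjustment kept 2.

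**Figure D2:**
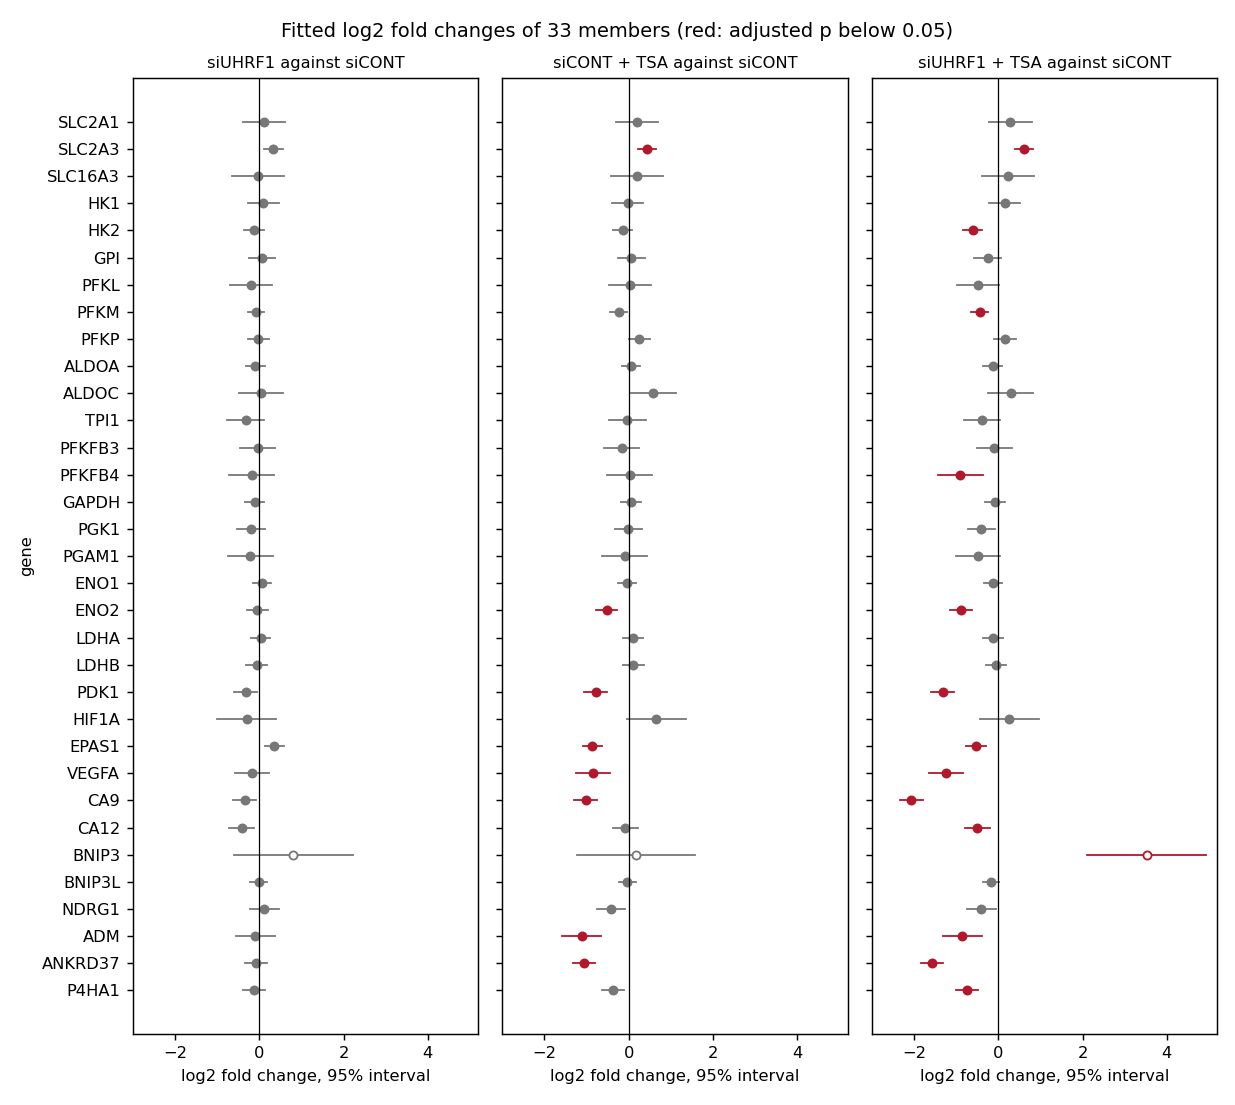
Points are fitted log2 fold changes of the 33 tested members and lines their 95% intervals, in 3 comparisons with siCONT, with red for an adjusted p below 0.05. No member is red for siUHRF1 alone, 8 are for TSA alone and 14 for the combination. The open symbol of BNIP3 stands for a probe below background in siCONT, whose fitted value is no measured size.

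Glucose enters the cell through facilitative transporters, of which SLC2A1 and SLC2A3 were members. SLC2A3 was at 2.38 and 2.37 in siCONT, 2.79 and 2.64 in siUHRF1, 2.84 and 2.78 in siCONT + TSA, 2.99 and 2.99 in siUHRF1 + TSA and 2.74 with 5-aza-dC. Every array outside siCONT lay above both siCONT arrays. The rise was 1.35-fold with TSA (log2 0.43, SE 0.09, limma adjusted p = 0.0368) and 1.53-fold with the combination (log2 0.61, SE 0.09, limma adjusted p = 0.00712). A second SLC2A3 probe gave 0.50 with the combination (limma adjusted p = 0.0209) and 0.26 with TSA (limma adjusted p = 0.169). SLC2A1 and the lactate exporter SLC16A3 were not called, with differences of 0.29 and 0.24 in the combination.

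In upper glycolysis, hexokinase traps glucose as its phosphate and phosphofructokinase commits it to breakdown. HK2, the inducible hexokinase, was at 4.30 and 4.33 in siCONT, 4.12 and 4.26 in siUHRF1, 4.12 and 4.22 in siCONT + TSA, 3.69 and 3.74 in siUHRF1 + TSA and 4.13 with 5-aza-dC. Only both arrays of the combination lay below 4, and HK2 fell there by 1.52-fold against siCONT (log2 -0.60, SE 0.09, limma adjusted p = 0.00818) and by 1.39-fold against siUHRF1 (limma adjusted p = 0.025). Against siCONT + TSA its difference of -0.46 missed the threshold (limma adjusted p = 0.0595). HK1, the constitutive hexokinase, had a difference of 0.15 (95% interval -0.21 to 0.52) between the combination and siCONT. PFKM, the muscle-type phosphofructokinase subunit, was at 5.88 and 5.86 in siCONT, 5.79 and 5.79 in siUHRF1, 5.61 and 5.65 in siCONT + TSA, 5.40 and 5.44 in siUHRF1 + TSA and 4.89 with 5-aza-dC. It fell by 1.36-fold in the combination (log2 -0.45, SE 0.08, limma adjusted p = 0.0132), a fall small in size but larger than the spread between arrays. The remaining 7 enzymes of the group (HK1, GPI, PFKL, PFKP, ALDOA, ALDOC and TPI1) were not called in any comparison, with differences from -0.48 (PFKL) to 0.29 (ALDOC) in the combination.

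Fructose 2,6-bisphosphate activates phosphofructokinase, and PFKFB3 and PFKFB4 encode enzymes that make and remove it. PFKFB4 was at 2.07 and 2.09 in siCONT, 1.74 and 2.05 in siUHRF1, 2.09 and 2.11 in siCONT + TSA, 0.85 and 1.50 in siUHRF1 + TSA and 0.32 with 5-aza-dC. Both arrays of the combination and the 5-aza-dC array lay below all others, while TSA without siUHRF1 gave 0.02. The fall in the combination was 1.87-fold (log2 -0.90, SE 0.22, limma adjusted p = 0.0326), and that against siCONT + TSA, at 1.90-fold, missed the threshold (limma adjusted p = 0.0938). The siRNA2 array of the combination lay 0.66 above its siRNA1 array. PFKFB3 had differences between -0.16 and 0.07 in the comparisons of the siRNA groups.

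In lower glycolysis and at the fate of pyruvate, abundant enzymes stood beside 2 members that fell. GAPDH, the reference transcript of many RT-PCR assays, was at 7.61 and 7.63 in siCONT, 7.46 and 7.56 in siUHRF1, 7.68 and 7.66 in siCONT + TSA, 7.47 and 7.63 in siUHRF1 + TSA and 7.42 with 5-aza-dC. All 9 arrays lay within 0.26 of each other, and no comparison called GAPDH, whose small differences changed sign with the scaling. ENO2, the neuronal enolase, was at 3.76 and 3.80 in siCONT, 3.80 and 3.67 in siUHRF1, 3.22 and 3.29 in siCONT + TSA, 2.80 and 2.99 in siUHRF1 + TSA and 2.92 with 5-aza-dC. All TSA arrays lay below all mock arrays, with a fall of 1.44-fold with TSA (log2 -0.52, SE 0.10, limma adjusted p = 0.0319), of 1.85-fold with the combination against siCONT (log2 -0.89, SE 0.10, limma adjusted p = 0.00347) and of 1.79-fold against siUHRF1 (limma adjusted p = 0.00718). The common enolase ENO1 had -0.13 (95% interval -0.34 to 0.08) in the combination. PGK1, PGAM1 and GAPDH were likewise not called, at -0.40, -0.48 and -0.07.

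PDK1 phosphorylates pyruvate dehydrogenase and so keeps pyruvate out of the mitochondrial cycle. It was at 3.37 and 3.43 in siCONT, 3.21 and 2.94 in siUHRF1, 2.61 and 2.63 in siCONT + TSA, 2.08 and 2.09 in siUHRF1 + TSA and 2.08 with 5-aza-dC. The 4 groups did not overlap, with siCONT highest and the combination lowest. PDK1 fell by 1.72-fold with TSA (log2 -0.78, SE 0.11, limma adjusted p = 0.0153), by 2.48-fold with the combination against siCONT (log2 -1.31, SE 0.11, limma adjusted p = 0.0013) and by 1.99-fold against siUHRF1 (limma adjusted p = 0.00559). The step from siCONT + TSA to the combination, -0.53, missed the threshold (limma adjusted p = 0.0643). The lactate dehydrogenase genes LDHA and LDHB were not called, with intervals of -0.36 to 0.10 and -0.30 to 0.19 in the combination.

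HIF1A and EPAS1 encode the alpha subunits of the HIF factors, and EGLN3 a prolyl hydroxylase that is itself a HIF target. HIF1A was at 0.94 and 0.89 in siCONT, 1.00 and 0.24 in siUHRF1, 1.56 and 1.58 in siCONT + TSA, 1.48 and 0.88 in siUHRF1 + TSA and 1.96 with 5-aza-dC. It was high on both siCONT + TSA arrays, but the siRNA2 arrays of both siUHRF1 groups lay 0.76 and 0.60 below the siRNA1 arrays. No comparison called it in the fit of all siRNA arrays without a block. The difference of 0.65 with TSA (95% interval -0.05 to 1.35, limma adjusted p = 0.197) passed the threshold when only the siCONT and siCONT + TSA arrays entered the fit (limma adjusted p = 0.00812). It also passed with the methods' t-test (Benjamini-Hochberg adjusted p = 0.0286). A second HIF1A probe gave 0.33 with TSA and was not called (limma adjusted p = 0.378). With a block within siRNA, which compares each siRNA's arrays with and without TSA, HIF1A passed for TSA with siCONT (limma adjusted p = 0.0269) and for TSA with siUHRF1 (log2 0.56, limma adjusted p = 0.0253), and the array of each UHRF1 siRNA was higher with TSA than without. EPAS1 was at 2.69 and 2.66 in siCONT, 3.0 and 3.06 in siUHRF1, 1.81 and 1.80 in siCONT + TSA, 2.23 and 2.06 in siUHRF1 + TSA and 2.20 with 5-aza-dC. It was highest in siUHRF1 and lowest in siCONT + TSA. TSA lowered it by 1.82-fold with siCONT (log2 -0.86, SE 0.09, limma adjusted p = 0.00983) and by 1.85-fold with siUHRF1 (log2 -0.89, SE 0.09, limma adjusted p = 0.00484), and the combination by 1.44-fold against siCONT (limma adjusted p = 0.0123). EGLN3 was not well above background with either of its 2 probes on any array.

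CA9 and CA12 encode carbonic anhydrases of the cell surface, which help to regulate the pH around the cell. CA9 was at 1.21 and 1.30 in siCONT, 1.03 and 0.79 in siUHRF1, 0.27 and 0.20 in siCONT + TSA, -0.78 and -0.84 in siUHRF1 + TSA and -2.20 with 5-aza-dC. No group overlapped another. CA9 fell by 2.03-fold with TSA (log2 -1.02, SE 0.11, limma adjusted p = 0.00988), by 4.18-fold with the combination against siCONT (log2 -2.06, SE 0.11, limma adjusted p = 0.000273) and by 3.28-fold against siUHRF1 (limma adjusted p = 0.00116). CA12 was at 0.20 and 0.31 in siCONT, -0.06 and -0.26 in siUHRF1, 0.10 and 0.25 in siCONT + TSA, -0.15 and -0.33 in siUHRF1 + TSA and -0.32 with 5-aza-dC. Its arrays divided by siRNA rather than by TSA, and it was called in the combination against siCONT (1.41-fold lower, log2 -0.50, SE 0.12, limma adjusted p = 0.0344), a call that 12 of 21 alternatives did not keep.

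VEGFA and ADM encode secreted peptides that act on blood vessels. VEGFA was at 2.40 and 2.44 in siCONT, 2.00 and 2.50 in siUHRF1, 1.59 and 1.54 in siCONT + TSA, 1.19 and 1.18 in siUHRF1 + TSA and 0.93 with 5-aza-dC. It fell by 1.81-fold with TSA (log2 -0.85, SE 0.16, limma adjusted p = 0.0294), by 2.35-fold with the combination against siCONT (log2 -1.24, SE 0.16, limma adjusted p = 0.00495) and by 2.10-fold against siUHRF1 (limma adjusted p = 0.0126), and a second VEGFA probe fell by 1.02 and 1.12 on the log2 scale in the first 2 of these. All TSA arrays lay below all mock arrays. ADM was at 5.68 and 5.68 in siCONT, 5.70 and 5.47 in siUHRF1, 4.55 and 4.59 in siCONT + TSA, 5.11 and 4.55 in siUHRF1 + TSA and 5.93 with 5-aza-dC. TSA lowered it by 2.17-fold with siCONT (log2 -1.12, SE 0.19, limma adjusted p = 0.0215) and by 1.68-fold with siUHRF1 (limma adjusted p = 0.0473), a call that 13 of 22 alternatives did not keep, whereas the 5-aza-dC array held its highest value.

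ANKRD37 encodes an ankyrin repeat protein and P4HA1 a subunit of the prolyl hydroxylase that modifies collagen. ANKRD37 was at 1.82 and 1.73 in siCONT, 1.58 and 1.81 in siUHRF1, 0.67 and 0.73 in siCONT + TSA, 0.21 and 0.21 in siUHRF1 + TSA and 1.95 with 5-aza-dC. The mock arrays and the 5-aza-dC array lay above 1.5 and all TSA arrays below 1. It fell by 2.10-fold with TSA (log2 -1.07, SE 0.11, limma adjusted p = 0.00875), by 2.95-fold with the combination against siCONT (log2 -1.56, SE 0.11, limma adjusted p = 0.000597) and by 2.80-fold against siUHRF1 (limma adjusted p = 0.00158). P4HA1 was at 1.78 and 1.75 in siCONT, 1.72 and 1.55 in siUHRF1, 1.32 and 1.45 in siCONT + TSA, 0.97 and 1.08 in siUHRF1 + TSA and 1.47 with 5-aza-dC. It fell by 1.67-fold with the combination (log2 -0.74, SE 0.11, limma adjusted p = 0.00614), and its -0.38 with TSA alone missed the threshold (limma adjusted p = 0.0725).

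BNIP3 and BNIP3L encode related proteins of the mitochondrial surface that take part in mitophagy and cell death. BNIP3 was at -5.83 and -5.75 in siCONT, -5.95 and -4.00 in siUHRF1, -5.66 and -5.56 in siCONT + TSA, all not well above background, and at -2.50 and -2.03 in siUHRF1 + TSA and 3.58 with 5-aza-dC, where it was. Its level in the combination was at least 2.80-fold that in siCONT, at least 2.64-fold that in siCONT + TSA and at least 3.1-fold that in siUHRF1. The fit gave limma adjusted p of 0.00944, 0.0354 and 0.0304 for these, but it set the combination against values below background, and the probe had passed the filter through the combination only. BNIP3L lay between 5.04 and 5.22 on the 8 siRNA arrays, and its brightest probe was not called, although 1 of its 2 other probes was in the combination (-0.38, limma adjusted p = 0.0478). NDRG1, a stress-induced gene, had differences of -0.42 with TSA and -0.41 with the combination that missed the threshold (limma adjusted p = 0.107 and 0.0852).

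**Figure D3:**
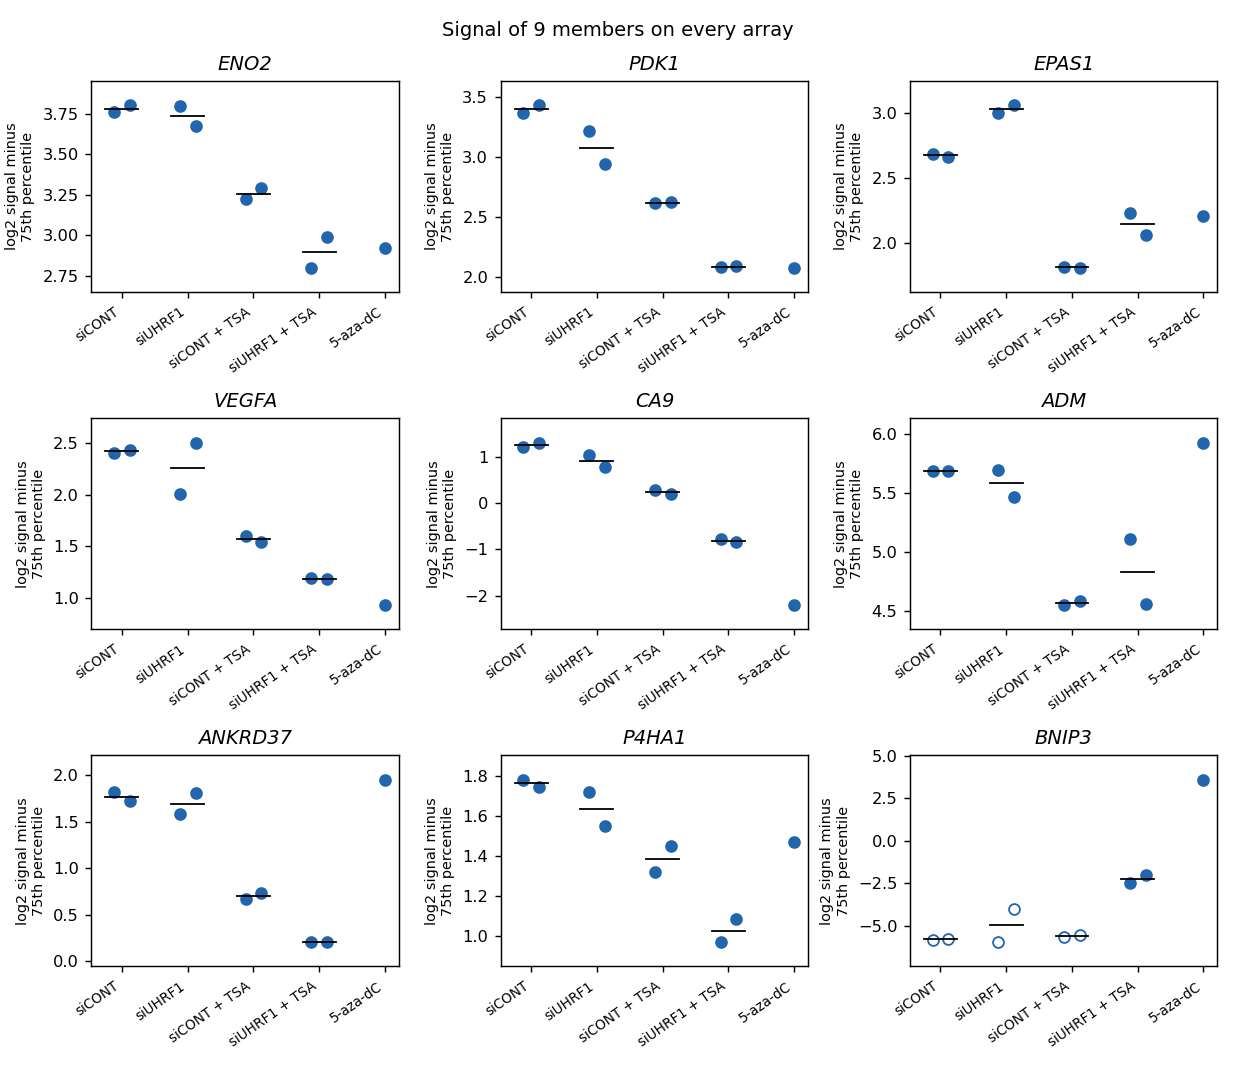
Each point is an array, with the log2 signal minus the array's 75th percentile on the vertical axis, bars at the mean of 2 arrays, and open points for a probe not well above background. CA9 and PDK1 step down from siCONT over siUHRF1 and siCONT + TSA to the combination, and BNIP3 is above background in the combination and with 5-aza-dC.

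To show where the cores bound by HIF factors lie in some of the members that fell, in a member called in no comparison and in BNIP3, the 250 bases before a start of transcription are printed for 6 genes. The sequences are from RefSeq on GRCh38.p14, 5′ to 3′ on the gene's strand, with every ACGTG or GCGTG on either strand in capitals (on the other strand these read CACGT and CACGC, and a CACGTG counts once on each strand). The windows are chr9:35673678-35673927 (+) for CA9, chr4:185396591-185396840 (+) for ANKRD37, chr2:172555840-172556089 (+) for PDK1, chr12:6914330-6914579 (+) for ENO2, chr11:18394313-18394562 (+) for LDHA and chr10:131981924-131982173 (-) for BNIP3. PDK1 and LDHA had 2 listed starts each, and the start with most ACGTG around it was taken. The other start had neither core for PDK1 and 1 GCGTG for LDHA within 250 bases before and 50 after it.
CA9: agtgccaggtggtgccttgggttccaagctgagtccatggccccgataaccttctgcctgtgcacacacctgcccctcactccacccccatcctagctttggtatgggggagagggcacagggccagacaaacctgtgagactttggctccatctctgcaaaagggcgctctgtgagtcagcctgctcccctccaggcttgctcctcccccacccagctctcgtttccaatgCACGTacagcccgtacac
ANKRD37: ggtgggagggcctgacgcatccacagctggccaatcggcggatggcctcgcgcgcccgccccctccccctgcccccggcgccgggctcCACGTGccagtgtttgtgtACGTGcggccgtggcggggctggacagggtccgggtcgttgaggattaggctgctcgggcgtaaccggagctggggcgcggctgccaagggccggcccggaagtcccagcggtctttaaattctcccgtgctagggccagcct
PDK1: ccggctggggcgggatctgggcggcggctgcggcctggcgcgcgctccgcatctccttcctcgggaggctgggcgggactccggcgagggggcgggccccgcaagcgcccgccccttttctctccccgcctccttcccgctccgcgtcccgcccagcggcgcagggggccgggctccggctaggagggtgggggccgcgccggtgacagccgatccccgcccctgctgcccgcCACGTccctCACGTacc
ENO2: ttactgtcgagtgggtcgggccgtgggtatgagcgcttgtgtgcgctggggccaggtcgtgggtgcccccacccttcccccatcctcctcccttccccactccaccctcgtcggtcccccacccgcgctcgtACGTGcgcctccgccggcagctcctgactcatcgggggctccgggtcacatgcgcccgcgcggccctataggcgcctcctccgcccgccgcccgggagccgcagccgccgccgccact
LDHA: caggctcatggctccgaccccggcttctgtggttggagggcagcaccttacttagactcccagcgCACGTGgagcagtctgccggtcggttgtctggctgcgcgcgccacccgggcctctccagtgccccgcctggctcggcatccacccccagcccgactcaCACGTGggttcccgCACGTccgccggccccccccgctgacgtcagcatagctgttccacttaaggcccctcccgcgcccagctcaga
BNIP3: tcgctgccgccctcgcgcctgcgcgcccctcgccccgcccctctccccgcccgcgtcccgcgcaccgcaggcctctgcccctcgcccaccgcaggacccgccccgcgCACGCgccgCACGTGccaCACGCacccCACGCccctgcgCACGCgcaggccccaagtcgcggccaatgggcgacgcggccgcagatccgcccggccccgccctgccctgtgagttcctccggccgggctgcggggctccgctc

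CA9 held 1 core, 18 bases before the start, PDK1 2 cores within 17 bases of it, ENO2 1 and ANKRD37 3. LDHA, which was called in no comparison, held 5 in the printed stretch, and BNIP3 held 6. Windows of 300 bases (250 before and 50 after the start) were at hand for 30 of the 34 members, and 18 of these (60%) had an ACGTG in at least 1 window against 24.9% of all 27305 genes in the table. Of single windows, 38.6% of the members' 57 and 21.4% of all 35116 held ACGTG, and 40.4% and 36.5% held GCGTG. The members were picked as glycolysis and hypoxia genes, some of them known HIF targets. Their windows also held more CpG dinucleotides, which both cores contain, at a median of 27 against 14 over all windows. By gene, GCGTG was in at least 1 window of 63.3% of these members and of 40.6% of all genes. Why the shares differ was not tested. BNIP3 had 48 CpG dinucleotides in its window, a number reached by 1.98% of all windows, whereas CA9 had 7. SLC2A3, VEGFA, BNIP3L and NDRG1 were not matched. The fallen members printed all held ACGTG, but not every fallen member did. EPAS1 and ADM, also called lower with TSA, had no ACGTG and 1 GCGTG each. Of members called lower with the combination but not with TSA alone, HK2, PFKM and P4HA1 had an ACGTG in at least 1 window. CA12 and PFKFB4 had GCGTG only.

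The effect of losing UHRF1 in the presence of TSA was read from siUHRF1 + TSA against siCONT + TSA. Of 33 members 2 were called, CA9 lower and BNIP3 higher, beside 3.97% of all gene names, and BNIP3 had passed the filter through the combination only. CA9 fell by 2.06-fold (log2 -1.05, SE 0.11, limma adjusted p = 0.00655). ANKRD37 (-0.49), PDK1 (-0.53) and HK2 (-0.46) lay just outside the threshold, with limma adjusted p from 0.0595 to 0.0722. The 2 calls became 0 without either siCONT + TSA array, 1 without either siCONT array or array 1 of the combination, and 6 without either siUHRF1 array. The median over the members was -0.23, and it was 0.07 with normexp background correction.

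TSA in UHRF1-depleted cells was read from siUHRF1 + TSA against siUHRF1, where 10 members fell and 1 rose of 33, beside 6.83% of all gene names lower and 9.85% higher (16.7% in either direction). The 1 that rose was BNIP3, which had passed the filter through the combination only, so its call is no support for a rise. The 10 were HK2, PFKM, ENO2, PDK1, EPAS1, VEGFA, CA9, ADM, ANKRD37 and P4HA1. The calls of PFKM and ADM were each lost in 13, and that of HK2 in 11, of 22 alternatives. CA9 fell most, by 3.28-fold (log2 -1.72, SE 0.11, limma adjusted p = 0.00116). With only the 4 arrays of both groups in the fit the count was 2, and it lay between 6 and 11 when 1 array was left out.

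Whether the effect of UHRF1 loss differed with and without TSA was tested as a difference of both effects. It called 0 of 33 members (limma), beside 0.372% of all gene names, and 4 at an unadjusted p below 0.05 (HK2, CA9, BNIP3 and ANKRD37). The share of all gene names at that unadjusted limit was not counted, and BNIP3 had passed the filter through the combination only. For CA9 the effect of siUHRF1 was -0.35 without and -1.05 with TSA, a difference of -0.70 (95% interval -1.08 to -0.31, limma adjusted p = 0.372). For PDK1 it was -0.21 (95% interval -0.60 to 0.17) and for EPAS1 -0.02 (95% interval -0.35 to 0.30). For EPAS1 the effect of siUHRF1 was thus 0.36 without and 0.33 with TSA, neither of which was called.

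Both UHRF1 siRNAs were compared member by member, since each siUHRF1 group holds 1 array of each. Over the 32 members above background on all arrays, the absolute difference between array 1 and array 2 had a median of 0.22 in siUHRF1 and 0.18 in siUHRF1 + TSA, against 0.03 in siCONT and 0.04 in siCONT + TSA. It passed 0.25 for 12 members in siUHRF1, 13 in siUHRF1 + TSA and 0 in either siCONT group. Over all 20504 probes above background on every array, the median was 0.23 in siUHRF1 and 0.18 in siUHRF1 + TSA. It was 0.059 in siCONT and 0.063 in siCONT + TSA. The spread in the siUHRF1 groups was thus that of the whole array and not particular to the members. The share of all probes past 0.25 was not counted. The difference had the same sign with and without TSA for 21 of 32 members, with Pearson's r of 0.73 across genes, which are not independent replicates and here share the siRNA and the slide column. Over all 20504 probes r was 0.568, so the agreement was not a trait of the members alone. SLC16A3 was at 6.30 with siRNA1 and 6.78 with siRNA2, and at 6.47 and 7.16 under TSA. PGAM1, a phosphoglycerate mutase, was at 5.93 and 6.42, and at 5.64 and 6.16 under TSA. TPI1 went the other way, with 7.20 and 6.84, and 7.17 and 6.75 under TSA, and so did HIF1A. In all, 9 members differed by over 0.25 in the same direction in both conditions, and the share of all probes that did so was not counted. Of the members called in the combination, PFKFB4 was 1 of these 9. A large difference between the arrays of a group also raises a member's SE in the fit, so such members were less likely to be called. The small overlap therefore cannot show whether the calls are free of differences between the siRNAs.

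**Figure D4:**
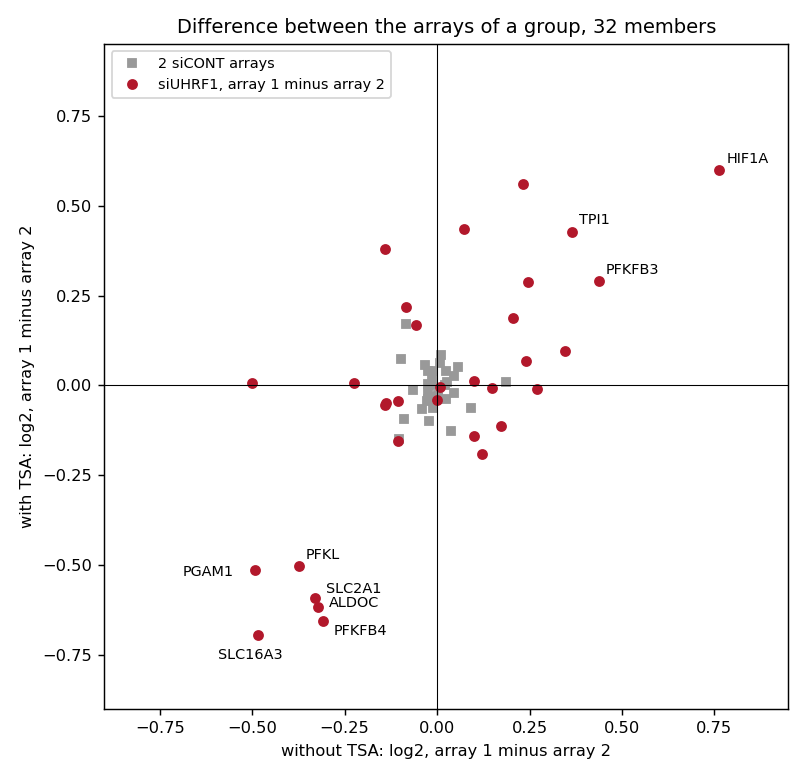
For 32 members the log2 difference between array 1 and array 2 is shown without TSA (horizontal) and with TSA (vertical), red for siUHRF1, where the arrays hold different siRNAs, and grey for siCONT. Grey squares stay within 0.19 of 0, while the 9 named members in red pass 0.25 on both axes with the same sign.

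The 5-aza-dC array was set against the mean of the siCONT arrays, without a test because it has no replicate, no siRNA and its own slide. Of 33 members 3 were over 2-fold higher (BNIP3, PFKFB3 and HIF1A) and 5 over 2-fold lower (PFKL, PFKFB4, PDK1, VEGFA and CA9), beside 19% of 20001 gene names higher and 12.6% lower. BNIP3, at 3.58, was at least 161-fold higher than in siCONT. CA9, at -2.20, was 11.0-fold lower, below every siRNA array. PFKFB3 was at 3.58 against 2.48 and 2.48 in siCONT (2.14-fold), and PFKFB4 at 0.32 against 2.07 and 2.09 (3.38-fold lower). VEGFA was 2.81-fold, PFKL 2.58-fold and PDK1 2.50-fold lower, while ADM (0.25), ANKRD37 (0.18) and LDHA (0.01) were close to siCONT. The median over the members was -0.46 and over all gene names 0.07. Scaling on the spike-in probes moved the median of all gene names to -1.67 and gave 1 member higher (BNIP3) and 30 lower, so the direction of the other members holds relative to the array's own signal only.

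**Figure D5:**
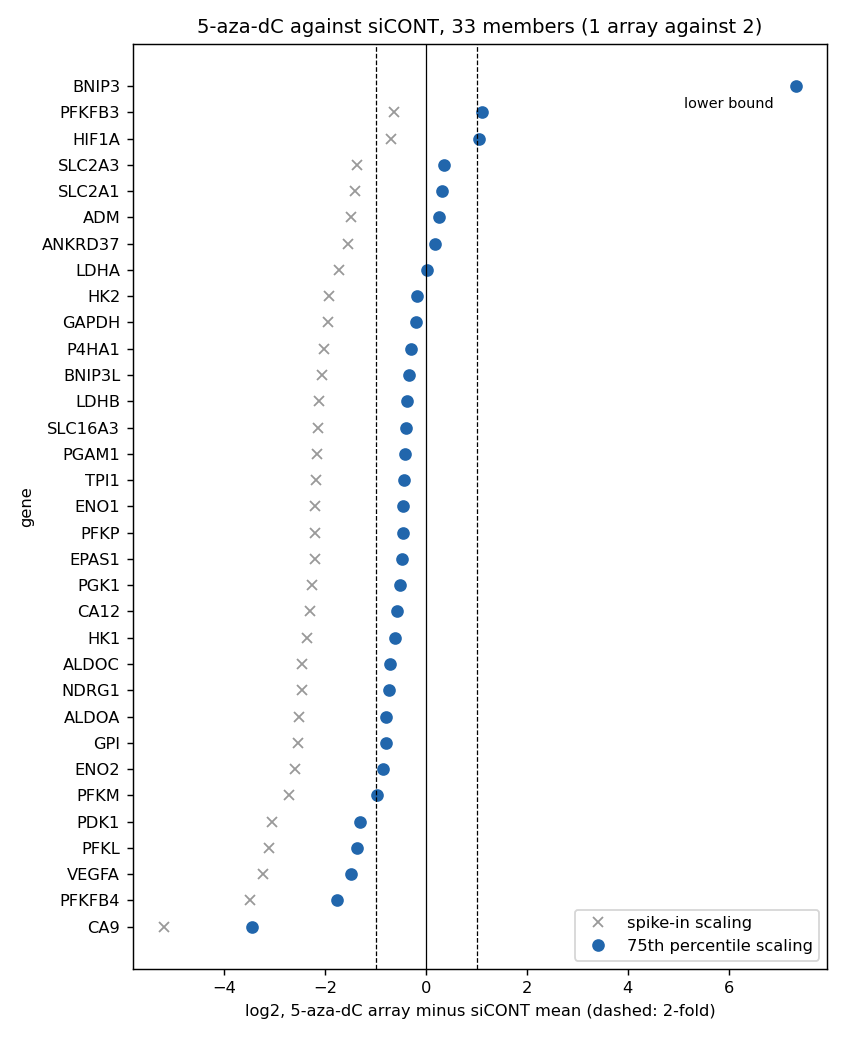
Blue points give the log2 difference between the 5-aza-dC array and the siCONT mean for 33 members under the 75th percentile scaling, grey crosses the same under spike-in scaling, and dashed lines mark 2-fold. BNIP3 is shown at its lower bound of 161-fold, far right of all others, and CA9 is lowest at -3.45.

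The other genes of these pathways were listed separately, 40 tested hypoxia genes, 22 glycolysis genes and 7 of the pentose phosphate pathway. With the combination against siCONT, 6 hypoxia genes rose and 11 fell, with a median of -0.25, beside the 15.4% of all gene names called higher and 9.41% lower. The lowest were DDIT4, an inhibitor of the growth regulator mTOR (4.78-fold lower, log2 -2.26, SE 0.24, limma adjusted p = 0.00245) and ANGPTL4, a secreted regulator of lipoprotein lipase (4.05-fold lower, log2 -2.02, SE 0.10, limma adjusted p = 0.000157). The highest were TFRC, the transferrin receptor (2.33-fold), and CITED2, which competes with HIF for a coactivator (1.83-fold). With TSA alone, 2 hypoxia genes rose, ARNT2 (1.54-fold) and HMOX1 (1.40-fold), and 5 fell, with DDIT4 (3.22-fold) and BHLHE40 (1.91-fold) lowest, beside 6.81% of all gene names higher and 4.38% lower. For siUHRF1 alone none of the 3 lists had a call by limma, with 5 hypoxia, 2 glycolysis and 2 pentose phosphate genes at an unadjusted p below 0.05. No share of all gene names was counted at that unadjusted limit. Of the 22 glycolysis genes, PCK2 (2.13-fold) and ENO3 (1.68-fold) fell with TSA, and both were also lower with the combination (2.00-fold and 1.50-fold). These 2 of 22 stand beside 4.38% of all gene names lower with TSA and 9.41% with the combination. Of the pentose phosphate genes, PGD, the 6-phosphogluconate dehydrogenase, rose by 1.24-fold with the combination (log2 0.32, SE 0.08, limma adjusted p = 0.0421).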

How the data were processed

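RNA of 9 RKO samples was hybridised to 1-colour Agilent SurePrint G3 arrays of 62976 spots. The authors deposited the intensities of each spot from Agilent Feature Extraction 10.7.3.1 (background-subtracted and detrended, not normalized between arrays), and per the file headers the flags for signal above background, saturation and outliers. The authors' value table held the same intensities to within 0.497%.

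Outlier spots (239 to 385 an array) and 4259 control spots were left out, log2 values of a probe's spots were averaged, and each array's 75th percentile over 50599 probes was subtracted. The 8 siRNA arrays were fitted as 4 groups with limma 3.58.1 in R 4.3.3. A probe entered (23730 probes, 17743 gene names) when it was well above background throughout at least 1 group, and p-values were adjusted over all probes (Benjamini-Hochberg, threshold 0.05). The single 5-aza-dC array was compared by a 2-fold limit without a test, over genes above background on it or on both siCONT arrays. Where a probe was below background in a whole group, the fold is given as "at least", against the mean over arrays of the lowest signal above background, or the probe's own signal if higher. Arrays have no count depth, and their number limits the precision.

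Values on every array are given for members called in any comparison with separate groups and for GAPDH, HIF1A, EPAS1 and UHRF1, and from the other pathway lists up to 2 called genes per direction and comparison, by size, apart from some that are not reported here. The members and lists were chosen with earlier results of these data known. Alternatives were other background corrections, scalings, filters, blocks and tests, the authors' value table, all probes of a gene, and leaving out each array. The fit was tested on simulated data. Promoters came from RefSeq on GRCh38.p14, and figures were drawn with matplotlib 3.10.9.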

Additional observations from a re-analysis of the deposited data

How the results depend on the processing

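Of 39 called differences of named genes, all kept their direction under the 22 alternatives, in which the call was lost in 192 cases and kept in 644, most often with the methods' t-test (29) and without siCONT array 1 or array 2 (24 each). The kept direction is no separate support, since alternatives that change only the test, prior or filter leave the difference as it was. For each of these differences the arrays of both groups lay apart, so leaving out 1 array could not reverse it. The 39 include differences of UHRF1, the siRNA target, and of BNIP3, which had passed the filter through the combination only. With 2 arrays a group, these calls rest on the pooled spread of 4 groups. The cause of the changes below was not tested unless the setting itself uses fewer arrays.

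No share of all gene names was counted for the alternatives, so the following are counts only. For siUHRF1 against siCONT, where no member was called, an unadjusted limma p below 0.05 gave 5 and the unadjusted methods' t-test 3. For siCONT + TSA against siCONT (8 called), spike-in scaling and fitting all probes without a filter each gave 4, the arrays of both groups alone 16, an unadjusted limma p 13, an added 2-fold limit 3 and the unadjusted methods' t-test 18, and leaving out 1 array gave 0 to 9. For siUHRF1 + TSA against siCONT (14 called), normexp gave 9, the 2-fold limit 5 and the adjusted methods' t-test 2, and leaving out 1 array gave 5 to 14. For siUHRF1 + TSA against siCONT + TSA (2 called), normexp and the adjusted methods' t-test gave 0, spike-in scaling, no filter and the strict filter gave 1, a trended and robust prior gave 6, the unadjusted limma p and the unadjusted methods' t-test gave 13, and leaving out 1 array gave 0 to 6. For siUHRF1 + TSA against siUHRF1 (11 called), normexp gave 6, no filter 7, the 4 arrays alone 2, the 2-fold limit 4 and the adjusted methods' t-test 0, and leaving out 1 array gave 6 to 11. The difference between the effects of UHRF1 loss had 4 members at an unadjusted limma p below 0.05, and leaving out 1 array gave 0 to 1. For 5-aza-dC (8 over 2-fold), spike-in scaling gave 31 and limma on all 9 arrays called 21, with the single array assumed to vary like the other groups.

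The uncalled differences of GAPDH changed sign. With TSA it was -0.25 under normexp, -0.08 under quantile normalization and -0.11 under spike-in scaling. For the combination against siCONT + TSA it was 0.18 under normexp, and against siUHRF1 -0.07 under quantile normalization and -0.093 under spike-in scaling. Leaving out 1 array, it ranged from -0.15 to 0.006 for the combination against siCONT and from -0.04 to 0.12 against siUHRF1. HIF1A, uncalled, ranged from -0.67 to 0.09 for siUHRF1 and from -0.036 to 0.564 for the combination against siCONT.

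A replicate block on the array number gave 0, 7, 13, 2, 10 and 0 members called in the 6 comparisons, in the order above. The numbers paired the siUHRF1 groups by siRNA and showed little pairing elsewhere. Array 1 minus array 2 correlated at 0.568 between siUHRF1 and siUHRF1 + TSA, which share the siRNAs, at 0.087 between siCONT and siCONT + TSA, and from -0.065 to 0.005 between siCONT and siUHRF1 groups. The main fit did not use the pairing by siRNA. A block on siRNA and number together gave 10 members for TSA with siCONT, 13 with siUHRF1 and 0 for the difference.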
